A study of Mus musculus with 2 samples.

Results

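Lung smooth muscle cells were picked out of cells sorted for a Nestin-GFP reporter by a rule on measured UMIs, the unique molecular identifiers that count RNA molecules in a droplet library. A lung cell was a member where its UMIs of Myh11, Actg2, Cnn1 and Actc1 summed to at least 8, exceeded the sum of each of 4 other marker groups, and came with at most 1 UMI of Mki67 and Top2a. The 4 groups marked pericytes, endothelial cells, myofibroblasts and matrix fibroblasts. The rule found 122 members among 5608 lung cells, or 2.18% (exact binomial 95% interval 1.81 to 2.59%), and the 2 libraries of the series held 9759 cells in all. The lung group (lung Nes-GFP+) and the brain group (brain Nes-GFP+) each came from mice of about 6 weeks that carried GFP under regulatory elements of the Nestin gene, and both were sorted for GFP by flow cytometry after trypsin digestion. The labels give the strain as C57BL/6, whereas the methods name CD1 or CD1 and C3H stock, with which the transgenic lines were bred. The reporter limits the model, because only smooth muscle cells bright enough for the GFP gate could enter either library.

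Smooth muscle cells line arteries, veins and airways and narrow them by sliding actin past smooth muscle myosin. Their contractile genes are switched on by serum response factor together with its partner myocardin, which act through a short DNA element called the CArG box. In the lung, vascular smooth muscle is a neighbour of pericytes, the mural cells of capillaries, and airway smooth muscle is a neighbour of myofibroblasts, which also hold actin and lay down elastic fibres. The comparison was therefore made with pericytes and with myofibroblasts of the same library, each chosen by a mirrored rule on its own marker group.

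Each group was 1 library, so cells were not replicates and no test between cell classes was made. The lung library held 5981 barcodes and 36816962 UMIs. The members held 728624 UMIs, with a median of 6187 per cell, against 5329 in 2139 pericytes, 6871 in 1111 myofibroblasts and 5575.5 in 532 endothelial cells. Levels are given as CPM, the UMIs of a gene summed over a class and scaled to 1000000 UMIs of that class. Ratios of CPM carry an exact 95% interval that covers counting error only and not the difference between animals. A gene was called higher or lower where its ratio reached 2 or fell to 0.5, among genes whose mean CPM over the compared classes was at least 25. Scrublet marked 2 of the 122 members as doublets, and none of the members had a barcode that was also in the brain library, although the libraries shared 15 barcodes.

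The genes of the rule are described first, with no test, because their values chose the cells. The sum of the 4 genes ran from 8 to 180 UMIs in the members, with a median of 22.5. Myh11, the heavy chain of smooth muscle myosin, had a median of 8 UMIs per member and was found in 119 of them. Actg2, the actin of visceral and other smooth muscle, had a median of 6 UMIs and was found in 103. Cnn1, the actin-binding protein calponin, had a median of 1 UMI and was found in 79. Actc1, the actin of heart muscle that is also made in some smooth muscle, had a median of 2 UMIs with a highest value of 137, and was found in 74. Of the 4 genes, Myh11 was therefore the most widely found and Actc1 the least. The actins have near-identical coding sequences, and how reads that fit several of them were counted is not given in the sources used here.

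Just inside the rule were 15 members with a sum of 8 to 10 UMIs, of which 6 had exactly 8. Just outside were 6 cells with a sum of 7 and 18 with a sum of 5 to 7 that exceeded every other group. The larger boundary lay on the myofibroblast side. Of 499 lung cells with a sum of at least 8, 262 that were not cycling had a myofibroblast sum at or above it, with a median smooth muscle sum of 12 and a median myofibroblast sum of 34. A pericyte sum at or above it was found in 56, and 61 were left out for Mki67 and Top2a. A cell could have several sums at or above it. Most members lay far from this line, since in 86 of 122 the sum was at least 4 times the next one, while in 8 it was within 2 UMIs of the next.

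**Figure D1:**
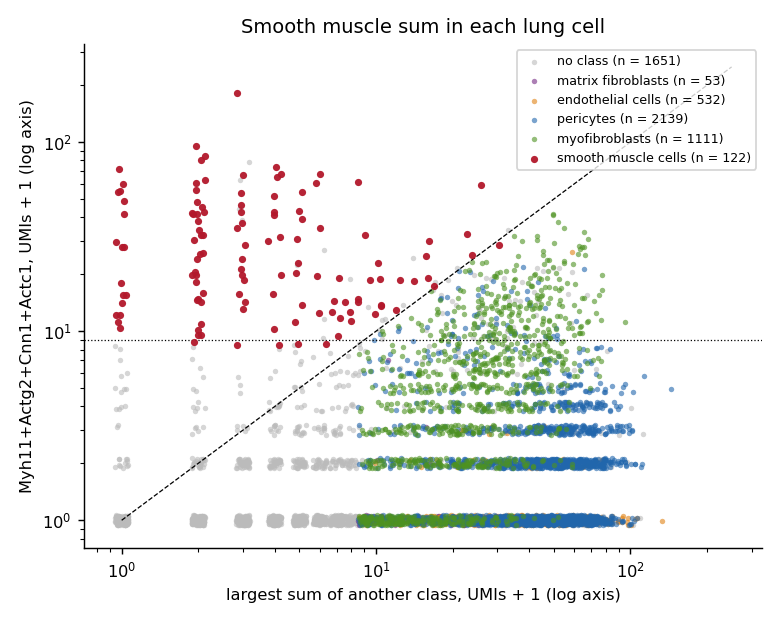
Each point is a lung cell, with the summed UMIs of Myh11, Actg2, Cnn1 and Actc1 plus 1 on the vertical log axis and the largest sum of another marker group plus 1 on the horizontal log axis, jittered slightly. The 122 smooth muscle cells lie above the dotted minimum of 8 UMIs and above the dashed line of equal sums, and the myofibroblasts reach up to that line from the right.

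The label was checked against markers of other cells. The immune list had 2 UMIs in all members, 1 each of Cd3e and Lyz2, with Ptprc, Cd52, Cd74 and Tyrobp at 0. Of the endothelial genes outside the rule, summed CPM was 293.7 in members and 11978 in endothelial cells, with Kdr at 0. The median member had 0 UMIs of these genes, and 57 of their 214 UMIs came from 1 cell. The epithelial list had UMIs in 12 members, Epcam and Cdh1 were at 0, and 24 of the 29 UMIs of Krt18 came from 1 cell. Mesothelial and Schwann cell genes had 1 and 2 UMIs. Pericyte genes outside the rule had a summed CPM of 1560 in members against 10264 in pericytes, and myofibroblast genes outside the rule 896.2 against 4787 in myofibroblasts. Defining markers of immune and epithelial cells were therefore at or near 0 in the members, and pericyte and myofibroblast genes were present at part of the level of their own classes.

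Contractile genes that the rule did not use were mostly higher in the members. Of 30 such genes, 27 passed the minimum against pericytes, and 20 were higher, 1 lower and 6 in between, where 8.68% of all genes tested were called higher and 12.8% lower. Their median log2 ratio was 2.02, and that of all genes tested was -0.16. Against myofibroblasts 26 passed, with 19 higher, 1 lower and 6 in between, beside 6.75% of all genes called higher and 8.92% lower. These shares over all genes, 8.68% higher and 12.8% lower against pericytes and 6.75% and 8.92% against myofibroblasts, are the background of every list count given further on. The median log2 ratio was there 1.40, against -0.10 for all genes tested. The members were selected on genes of the same kind of cell, so these counts describe them and test nothing.

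Acta2, the actin of smooth muscle, had 0 to 292 UMIs per member with a median of 73 and a level of 14872 CPM. Its level was 970.8 CPM in pericytes and 2298 CPM in myofibroblasts, a ratio of 15.3 (95% interval 14.9 to 15.7) and 6.47 (6.32 to 6.63). After every cell was thinned to 1000 UMIs, Acta2 was found in 95.9% of members, 33.1% of pericytes, 67.7% of myofibroblasts and 3.38% of endothelial cells, which are not known for this gene. Without thinning, 98.4% of members and 15.4% of endothelial cells had a UMI. Acta2 was thus found in pericytes and myofibroblasts too, and both its amount and the share of cells with a UMI were highest in the members.

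Lmod1, leiomodin, which nucleates actin filaments, separated the classes more sharply. It had 723.3 CPM in members, 17.9 CPM in pericytes and 31.0 CPM in myofibroblasts, ratios of 40.3 (34.2 to 47.6) and 23.3 (19.97 to 27.2). Ldb3, a protein of the actin-anchoring Z-disc family, had 78.2 CPM against 1.51 and 1.15 CPM. Itga8, an integrin subunit, stood at 352.7 CPM in members and 4.10 CPM in myofibroblasts, an 85.9-fold difference, but at 93.1 CPM in pericytes, a 3.79-fold difference. Myocd, which encodes myocardin, was at 78.2 CPM in members and 1.33 CPM in pericytes, a ratio of 58.7 (32.8 to 111.6), but only 2.73-fold (2.01 to 3.67) above the 28.6 CPM of myofibroblasts. The gene for its partner, Srf, was in between in both comparisons, with 54.9, 42.0 and 35.8 CPM in the 3 classes.

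Several contractile genes went against this pattern. Ppp1r14a, an inhibitor of myosin phosphatase, was at 833.1 CPM in members and 1858 CPM in pericytes, a ratio of 0.448 (0.413 to 0.486). Pdlim3, which links actinin to the cytoskeleton, was at 149.6 CPM in members and 573.9 CPM in myofibroblasts, a ratio of 0.261 (0.214 to 0.315). Smtn, smoothelin, had 127.6, 134.7 and 92.2 CPM in members, pericytes and myofibroblasts and was in between in both comparisons. Cald1, which encodes the actin-binding protein caldesmon, was within 1.31-fold and 1.49-fold of the other classes.

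**Figure D2:**
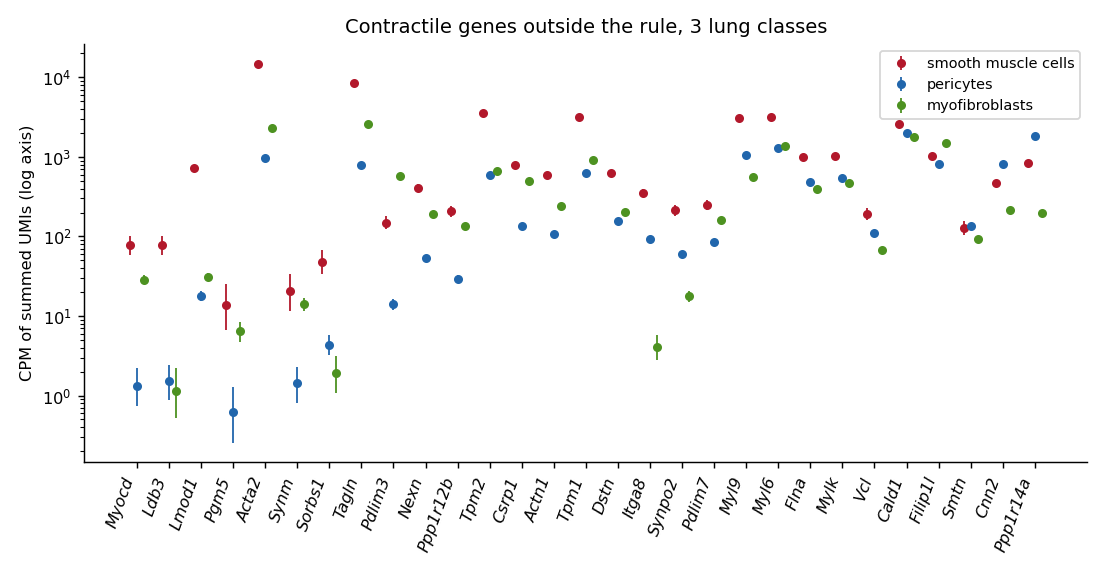
The plot shows CPM on a log axis for contractile genes outside the rule, ordered by the ratio of smooth muscle cells to pericytes, with points for the 3 lung classes and bars for exact 95% Poisson intervals of the summed UMIs. Smooth muscle cells are highest for most genes at the left and middle, while Ppp1r14a at the right is highest in pericytes.

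Windows before gene starts were searched for the CArG box in RefSeq sequence of build GRCm38.p6, the build also known as mm10. The box was taken as CC, then 6 bases that are each A or T, then GG, which reads the same on both strands. It was found in 1.63% of 32851 windows of 300 bases, which is a share of windows. The list counts that follow are of genes, and a gene counted where any of its windows held a box. Of the 30 contractile genes outside the rule, 26 had a window. Of those, 6 held a box, namely Cnn2, Filip1l, Ldb3, Myl6, Myl9 and Vcl. Among the 4 genes of the rule, Actc1 and Cnn1 had a window and that of Actc1 held a box, while Myh11 and Actg2 had no window and were not searched. None of the 16 genes with a window in the elastic fibre and basement membrane list held one, nor did any of the 7 of the myofibroblast or the 7 of the arterial list. The box was found in 1 of 9 genes with a window in the pericyte list, Trpc6, and in 1 of 14 in the heart muscle list, Myl7. Below are the 250 bases before the start of 4 genes, in the direction of transcription and in lower case with the box in capitals. Actc1 is shown as a rule gene, Myl9 and Ldb3 as genes with a box and higher levels in members, and Acta2 as a gene with no exact match. They lie at chr2:114052876-114053125 (minus strand, Actc1), chr2:156775214-156775463 (plus strand, Myl9), chr14:34588682-34588931 (minus strand, the first of 2 windows of Ldb3) and chr19:34255374-34255623 (minus strand, Acta2).
Actc1: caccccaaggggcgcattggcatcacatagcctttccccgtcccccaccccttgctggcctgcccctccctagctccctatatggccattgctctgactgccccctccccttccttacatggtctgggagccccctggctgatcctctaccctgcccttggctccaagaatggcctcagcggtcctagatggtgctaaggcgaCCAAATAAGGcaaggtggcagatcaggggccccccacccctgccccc
Myl9: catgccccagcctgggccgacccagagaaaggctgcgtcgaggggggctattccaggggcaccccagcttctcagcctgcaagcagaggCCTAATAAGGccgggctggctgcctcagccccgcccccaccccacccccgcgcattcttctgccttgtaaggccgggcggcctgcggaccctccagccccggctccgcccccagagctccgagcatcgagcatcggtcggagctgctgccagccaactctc
Ldb3: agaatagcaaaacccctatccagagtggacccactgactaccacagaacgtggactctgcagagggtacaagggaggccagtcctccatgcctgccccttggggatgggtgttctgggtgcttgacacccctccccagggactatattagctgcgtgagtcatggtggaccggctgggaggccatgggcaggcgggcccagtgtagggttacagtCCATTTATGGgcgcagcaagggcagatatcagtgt
Acta2: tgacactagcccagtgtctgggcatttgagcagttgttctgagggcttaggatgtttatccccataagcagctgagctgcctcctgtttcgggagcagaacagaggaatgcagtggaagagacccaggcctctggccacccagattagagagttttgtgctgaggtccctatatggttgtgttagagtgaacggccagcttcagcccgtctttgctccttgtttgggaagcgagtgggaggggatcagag
The box began 47 bases before the start of Actc1, 161 before that of Myl9 and 35 before that of Ldb3. A match describes these letters alone and shows no binding. The window of Acta2 holds ccctatatgg and ccttgtttgg, each 1 base off the pattern searched. A missing exact match therefore does not show that a gene lacks the element.

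Genes of the extracellular matrix differed from pericytes in both directions, with Eln, Lox and Ltbp1 among the higher and Col4a1 and Nid1 among the lower. Elastic fibres let vessels and airways recoil, while the basement membrane is the thin sheet that surrounds mural cells. Of 24 genes of the list, 23 passed against pericytes, with 10 higher, 6 lower and 7 in between. Against myofibroblasts 7 were higher, 3 lower and 13 in between. The median log2 ratios were 0.53 and -0.06. Eln, which encodes elastin, had 0 to 56 UMIs per member with a median of 11, and 2037 CPM against 97.0 CPM in pericytes and 1133 CPM in myofibroblasts. That was a ratio of 21.0 (19.4 to 22.7) and 1.80 (1.70 to 1.90). Ltbp1, a latent TGF-beta binding protein, stood at 479.0 CPM against 19.99 and 60.8 CPM, and Fbln5, a fibulin that guides elastin assembly, at 682.1 CPM against 51.2 and 145.8 CPM. Fbln5 was not limited to smooth muscle, since endothelial cells had 1933 CPM. Lox, which crosslinks elastin, was 20.6-fold (16.3 to 26.1) above pericytes and 2.19-fold (1.85 to 2.58) above myofibroblasts. Mfap4, a microfibril protein, was 17.6-fold above pericytes and stood at 0.810 times (0.747 to 0.876) the level of myofibroblasts. Col4a1, a collagen of the basement membrane, was at 936.0 CPM in members and 4251 CPM in pericytes, a ratio of 0.220 (0.204 to 0.238), and at 978.9 CPM in myofibroblasts. Nid1, nidogen, was likewise lower than in pericytes, at 178.4 against 830.4 CPM. Not every basement membrane gene was lower, since Lama5, a laminin chain, was at 134.5 CPM against 3.55 CPM in pericytes. Genes of a fibroblast list were also mostly higher than in pericytes, but not than in myofibroblasts, with 8 of 11 higher than in pericytes, 3 in between and none lower, and 1 of 11 higher and 8 lower than in myofibroblasts, where the 1 higher is near the background. Their summed level was 8878 CPM in members, 4384 CPM in pericytes, 31133 CPM in myofibroblasts and 61868 CPM in matrix fibroblasts. A few cells carried part of the level in members, since 1 cell held 1010 of the 6469 UMIs of the list and the median member 33.5. The part of these genes in the difference of elastic fibre genes from pericytes was not tested.

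Receptors and second messenger genes that relax or contract vessels differed from pericytes and from myofibroblasts in different ways. Of 38 receptor and messenger genes with counts, 11 passed against pericytes, and 2 were higher, 7 lower and 2 in between, beside 8.68% of all genes called higher and 12.8% lower. Against myofibroblasts 7 passed, of which 6 were higher and 1 was in between, beside 6.75% of all genes called higher. The median log2 ratios were -1.85 and 1.83. Gucy1a1, a subunit of the guanylate cyclase that senses nitric oxide, had 735.6 CPM in members, 5103 CPM in pericytes and 217.4 CPM in myofibroblasts, so its ratio was 0.144 (0.132 to 0.157) and 3.38 (3.07 to 3.73). Ednra, a receptor for endothelin, had 149.6, 563.5 and 138.4 CPM, and Agtr1a, a receptor for angiotensin, 15.1, 181.0 and 2.95 CPM. Ramp1, part of the receptor for the vessel-relaxing peptide CGRP, was the clearest exception, at 404.9 CPM in members, 6.75 CPM in pericytes and 162.3 CPM in myofibroblasts. P2rx1, a channel opened by ATP that nerves release, was at 45.3 CPM in members and 2.49 CPM in pericytes and had no UMI in myofibroblasts, where it was at least 118-fold higher by a floor of 3 UMIs over the class, but its mean level was under the minimum of 25 CPM and it is not in these counts.

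Ion channel genes were mixed. Of 32 genes for calcium and potassium handling, 17 passed against pericytes with 4 higher, 6 lower and 7 in between, and 14 against myofibroblasts with 5 higher, 4 lower and 5 in between, at median log2 ratios of -0.59 and 0.47. Ano1, a chloride channel opened by calcium, was at 107.1 CPM against 15.6 CPM in pericytes and 1.15 CPM in myofibroblasts. Trpc6, a cation channel, went the other way with 8.23 CPM in members and 400.7 CPM in pericytes, a ratio of 0.0205 (0.00754 to 0.0448). Pde5a, which breaks down cyclic GMP, was at 280.0, 2704 and 664.7 CPM and so was lower in members than in both other classes. Kcna5, a voltage-gated potassium channel, was at 42.6 CPM, with 0.622 CPM in pericytes and 0.513 CPM in myofibroblasts, and was also under that minimum.

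Among transcription factors, T-box and Foxf1 genes of the lung mesenchyme were lower in the members, and Foxc1, Gata6 and Prrx1 were higher. Of the factors with enough UMIs against pericytes, 28 in number, 8 were higher, 9 lower and 11 in between, and against myofibroblasts 10 of 29 were higher, 9 lower and 10 in between, with median log2 ratios of -0.38 and -0.06. Tbx4 and Tbx5, which act in lung bud growth, were at 27.4 and 50.8 CPM, against 250.6 and 359.4 CPM in pericytes and 234.1 and 124.4 CPM in myofibroblasts. Foxf1, a forkhead factor of lung mesenchyme and endothelium, was at 53.5, 421.1 and 186.5 CPM in the same order. Tbx2 was at 185.3, 893.9 and 447.5 CPM. By contrast, Foxc1, a forkhead factor of vessel wall development, was at 93.3 CPM against 5.06 and 9.88 CPM, ratios of 18.4 (12.8 to 26.7) and 9.45 (6.72 to 13.3). Gata6 was at 152.3 CPM against 7.91 and 53.6 CPM, and Prrx1, a homeobox factor of mesenchyme, was 3.84-fold and 2.60-fold higher.

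Among signalling genes, 12 of 28 were higher, 6 lower and 10 in between against pericytes, and 9 of 31 were higher, 10 lower and 12 in between against myofibroblasts, with median log2 ratios of 0.19 and -0.23. Notch3, the Notch receptor of mural cells, had 348.6 CPM in members, 601.7 CPM in pericytes and 22.7 CPM in myofibroblasts. Jag1, a Notch ligand, had 513.3 CPM against 55.8 and 47.1 CPM, ratios of 9.20 (8.07 to 10.47) and 10.9 (9.42 to 12.6). As a class, the members therefore held both receptor and ligand. Binding proteins of insulin-like growth factors were also higher than in pericytes, with Igfbp5 at 1031 CPM against 42.9 CPM and Igfbp7 at 2871 CPM against 335.2 CPM. In myofibroblasts these were at 630.9 and 947.4 CPM.

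Immediate early and heat shock genes, which rise when tissue is taken apart, were mostly higher than in pericytes and mostly in between against myofibroblasts. Against pericytes 8 of 15 were higher, 1 lower and 6 in between, and against myofibroblasts 3 of 15 were higher, 1 lower and 11 in between, with median log2 ratios of 1.17 and 0.04. Summed CPM was 8657 in members, 3797 in pericytes and 8709 in myofibroblasts, and their part in the other differences from pericytes was not tested. Hspb1, a small heat shock protein that is also made in muscle, was at 189.4 CPM, with 4.27 CPM in pericytes and 27.1 CPM in myofibroblasts.

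Nes, the gene whose regulatory elements drive the reporter, was lower in smooth muscle cells than in both other classes. It had 0 to 14 UMIs per member with a median of 0, and 53 of 122 members had a UMI. Its level was 155.1 CPM, against 507.2 CPM in pericytes, a ratio of 0.306 (0.252 to 0.368), and 429.1 CPM in myofibroblasts, a ratio of 0.361 (0.297 to 0.436). At 1000 UMIs per cell, 13.1% (7.69 to 20.4%) of members had a Nes UMI, against 37.5% of pericytes, 32.3% of myofibroblasts and 16.2% of endothelial cells, and no class of this sort is expected to lack Nes. The 19 members with a sum under 2 times the next had 393.3 CPM of Nes and the other 103 had 103.5 CPM. The gate and the level of Nes cannot be told apart, since cells with little reporter were not sorted. Among the other intermediate filaments, Des, desmin, was at 662.9 CPM in members and 727.6 CPM in pericytes, a ratio of 0.911 (0.829 to 0.999) that changed side with the median-of-ratios scaling, whose shift was -0.16 on the log2 scale. Vim, vimentin, was at 4408 CPM and was 3.00-fold (2.89 to 3.12) above pericytes and 1.15-fold (1.11 to 1.20) above myofibroblasts.

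Among all genes other than those of the rule and of the airway and vascular sums, the 10 with the highest ratio to pericytes were led by heart muscle genes, most of whose UMIs came from a few cells. Myl7, Tnni3, Csrp3, Myl3 and Sln each had UMIs in 3 members, whereas Tnnt2 had UMIs in 10 and Tcap in 14. Grp, which encodes the bronchoconstrictor peptide gastrin-releasing peptide, was spread over more cells. Igfbp2 was found in 18 members, and Sncg, a synuclein, in 15, with 34.1% of the Sncg UMIs in 1 cell. Grp had 436 UMIs in 59 members, at most 31 in a cell, and 598.4 CPM against 0.622 CPM in pericytes, a ratio of 962.0 (463 to 2407), and 3.08 CPM in myofibroblasts. The endothelial class had 152.3 CPM. Against myofibroblasts the leading genes included Sfrp2, a secreted Wnt antagonist, at 123.5 CPM against 0.257 CPM, Sost, another such antagonist, at 72.7 CPM against 0.257 CPM, and Olfr78, an olfactory receptor found in vascular smooth muscle, at 46.7 CPM against 0.128 CPM. Fam81a, Pcp4l1, Bex4, Tesc, Myom1, Ctnna3 and Nrgn completed that set.

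The genes lowest against pericytes were Hsd11b1, Nostrin, Arhgap18, Card9, Fam134b, Cadm1, Clstn2, Gap43, Cpa1 and Rassf5. Hsd11b1, the enzyme that activates glucocorticoids, had 3 UMIs in all members, 4.12 CPM, against 798.5 CPM in pericytes, a ratio of 0.00516 (0.00106 to 0.0151). Gap43, a growth-associated protein of axons, was at 13.7 against 813.7 CPM. Against myofibroblasts the lowest included H2-Eb1, Ccl21a, H2-Ab1, Ifi27l2a, Ibsp, Scgb3a2, Cd74, Ly6a and Zfp385b. That set includes the class II antigen presentation genes H2-Eb1, H2-Ab1 and Cd74, of which the members had 1, 1 and 0 UMIs. Few myofibroblasts carried these levels, since H2-Eb1 and H2-Ab1 each had UMIs in 1.89% of them and Cd74 in 2.61%. Ccl21a was found in 2.52% of myofibroblasts and Scgb3a2 in 0.72%, while Zfp385b was more widely found, in 20.7%.

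Airway and vascular features were then separated. A member was on the airway side where Lgr6, Hhip, Chrm2, Chrm3, Mapk4 and Cdh4 summed to at least 3 UMIs and exceeded the sum of 10 vascular mural genes, and on the vascular side in the reverse case. No member was on the airway side, 115 were on the vascular side and 7 on neither. Hhip also counts toward the myofibroblast sum that a member had to exceed, and Chrm3 had no UMI. The 0 was therefore partly set in advance and gives no limit on the share of airway cells. The part of Hhip in the 0 was not tested. The vascular sum ran from 1 to 269 UMIs with a median of 13, and the airway sum from 0 to 4, with 22 UMIs in all and 17 members with any. These values set the sides and are a description. The vascular list holds genes that pericytes share, and 10 of 10 of them were higher than in myofibroblasts, while against pericytes 1 was higher, near the background of 8.68%, 5 lower and 4 in between. Its median log2 ratio was 3.40 against myofibroblasts and -1.09 against pericytes.

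The few airway UMIs were mostly of Lgr6, a receptor of airway smooth muscle, with 1 UMI in each of 13 members. Its level was 17.8 CPM in members and 20.7 CPM in myofibroblasts, a ratio of 0.864 (0.450 to 1.52), and 0.178 CPM in pericytes. Hhip, a hedgehog inhibitor that airway smooth muscle and myofibroblasts make, had 1 UMI in members and 110.8 CPM in myofibroblasts, and it was also part of the rule's myofibroblast sum. Chrm3, the muscarinic receptor of airway contraction, had no UMI in any of the 5 classes, so its absence separates nothing here.

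The cells that the rule placed on the myofibroblast side differed in Hhip, which the rule itself used. Among the 262 cells with a smooth muscle sum of at least 8 and a myofibroblast sum at or above it, 30 were on the airway side, 146 on the vascular side and 86 on neither, and the airway sum reached 23 UMIs. Hhip was at 107.9 CPM there and Notch3 at 20.2 CPM, against 1.37 and 348.6 CPM in members. Lgr6 was at 23.2 CPM there against 17.8 CPM in members, a ratio of 0.771 (0.383 to 1.45), and Chrm2, a muscarinic receptor, had no UMI there and 6 in members. Of the rule genes, whose values also divide these cells from the members, Myh11 was at 872.4 CPM in them, Actg2 at 764.5 CPM and Actc1 at 1.48 CPM. Hhip counts toward the myofibroblast sum of the rule and had UMIs in 69 of the 262 cells. Tgfbi, of the same sum, had UMIs in all 262, at 3578 CPM. The part of Hhip in placing these cells outside the members was not tested.

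**Figure D3:**
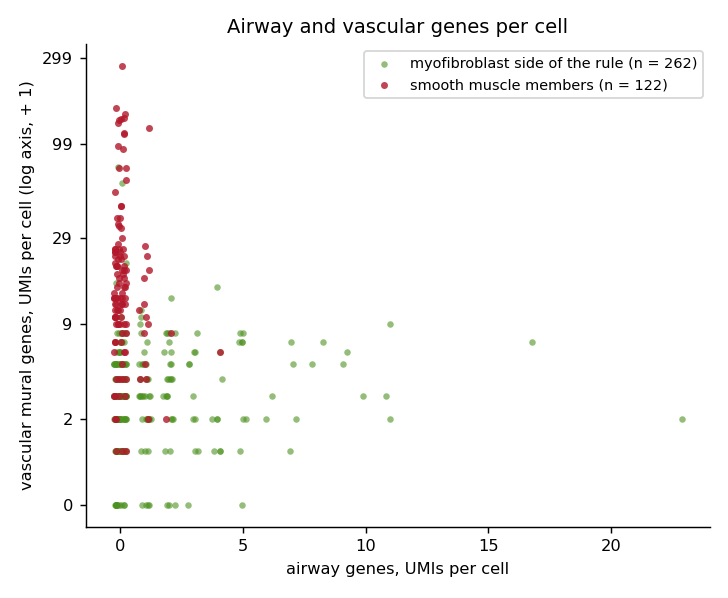
Each point is a cell, with the summed UMIs of 6 airway genes on the horizontal axis and of 10 vascular mural genes on the vertical log axis. The 122 members lie at 4 airway UMIs or fewer, and the 262 cells on the myofibroblast side of the rule spread out to 23.

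Some genes known from arterial smooth muscle were higher than in pericytes. Of 12 genes, 6 passed against pericytes, with 5 higher and 1 lower, and 6 against myofibroblasts, with 5 higher and 1 in between. The median log2 ratios were 3.28 and 2.55. Map3k7cl was at 285.5 CPM against 7.997 CPM in pericytes and 1.54 CPM in myofibroblasts, ratios of 35.7 (27.7 to 46.2) and 185.5 (103.9 to 364.7). Ntrk3, a neurotrophin receptor, was at 109.8 CPM against 1.95 and 34.2 CPM. Olfr558, like Olfr78 an olfactory receptor, was at 50.8 CPM against 6.84 and 0.385 CPM. Mustn1, a small muscle protein, was at 750.7 CPM against 58.8 CPM in pericytes and 1027 CPM in myofibroblasts. Adra1d and Avpr1a, receptors for noradrenaline and vasopressin, had no UMI in members.

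The members were not alike, and 3 sets could be seen in their UMIs. The sets were drawn after the values were seen, so they and the genes named for them are described without any test. The smallest held 3 cells with no UMI of Myh11, Actg2 or Cnn1, which were members through 44, 40 and 9 UMIs of Actc1. They held 442, 290 and 37 UMIs of a list of heart muscle genes, such as Myl7, the atrial light chain of myosin, with 156, 65 and 14 UMIs. Heart muscle reaches along the pulmonary veins in rodents. Acta2 was at 2, 0 and 4 UMIs in these cells and Tagln at 0 in all of them, and in 2 of them Col1a1 was at 210 and 236 UMIs. Another cell, outside this set, had 28 UMIs of the list but 180 UMIs of the rule genes, 180 of Acta2 and 24 of Krt18. These 4 cells held 94.7% of the heart muscle UMIs of all members, and the other 118 had at most 5 each. Of the other 70 members with Actc1, 18 had a UMI of the list, so its genes were low in them but not absent. Of all other lung cells, 13 had 20 or more UMIs of the list. With the 3 cells left out, Grp led the ratios to pericytes at 998.6 (480.6 to 2498), followed by Sncg and Igfbp2, and no gene of the heart muscle list stayed among the first 10.

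The second set was defined by Rgs5, a regulator of G protein signalling in mural cells. It had at least 10 UMIs in 16 members, called Rgs5-high, and at least 48 in 14 of them. The members outside this set and the 3 cells above are called Rgs5-low, and 82 of these 103 had no Rgs5 UMI. The Rgs5-high cells had a median of 6273 UMIs and the Rgs5-low cells of 6110, and Scrublet marked 0 and 2 of them. Eln had 8 UMIs in the 16 Rgs5-high cells, 79.1 CPM, and 2450 CPM in the Rgs5-low cells, where it was found in 99 of 103, a ratio of 0.0323 (0.0139 to 0.0638). Fbln5 and Grp had no UMI in Rgs5-high cells against 483 and 436 in Rgs5-low cells, and Actc1 had 0 against 724. Actg2 and Cnn1 were at 98.9 and 19.8 CPM, against 1814 and 577.5 CPM.

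The Rgs5-high cells met the rule almost only through Myh11, which says nothing of their identity beyond the rule. Myh11 was at 8 to 62 UMIs in them, 3650 CPM against 1756 CPM in Rgs5-low cells, a ratio of 2.08 (1.84 to 2.34). Mylk, the kinase that activates myosin, was at 2720 against 778.9 CPM, and Des at 1256 against 582.5 CPM. Acta2 was at 7388 against 16781 CPM. Pericyte genes differed from Rgs5-low cells in both directions. Postn, periostin, was at 306.6 against 722.3 CPM, a ratio of 0.424 (0.285 to 0.611), and Kcnk3, a potassium channel, at 138.5 against 299.6 CPM, a ratio of 0.462 (0.248 to 0.796). Ndufa4l2, a mitochondrial protein of the pericyte list, was higher, at 1582 against 228.0 CPM. Vtn, vitronectin, had 24 UMIs against 2, a ratio of 71.3 (17.7 to 622.6), and Kcnj8, a potassium channel of pericytes, had 7 against 7, a ratio of 5.94 (1.78 to 19.9). Higd1b had 27 UMIs against 18, a ratio of 8.91 (4.73 to 17.2), and Pdgfrb was at 356.1 against 249.6 CPM with an interval of 0.963 to 2.06 for the ratio, although the rule holds both genes down through its pericyte sum. The part of pericyte RNA in this set was not tested. Vascular genes higher than in Rgs5-low cells were Sparcl1, at 2858 against 246.3 CPM, the gap junction genes Gja4, at 306.6 against 28.3 CPM, and Gjc1, at 722.0 against 96.5 CPM, and Notch3, at 811.0 against 286.3 CPM. The genes with the largest ratios were Nrip2, with 67 UMIs against 1, Tesc, with 56 against 2, and Procr, the endothelial protein C receptor, with 46 against 0. Olfr558 was at 237.4 against 21.6 CPM, while Olfr78 was at 69.2 against 44.9 CPM, a ratio of 1.54 (0.566 to 3.63) whose interval held equal levels.

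**Figure D4:**
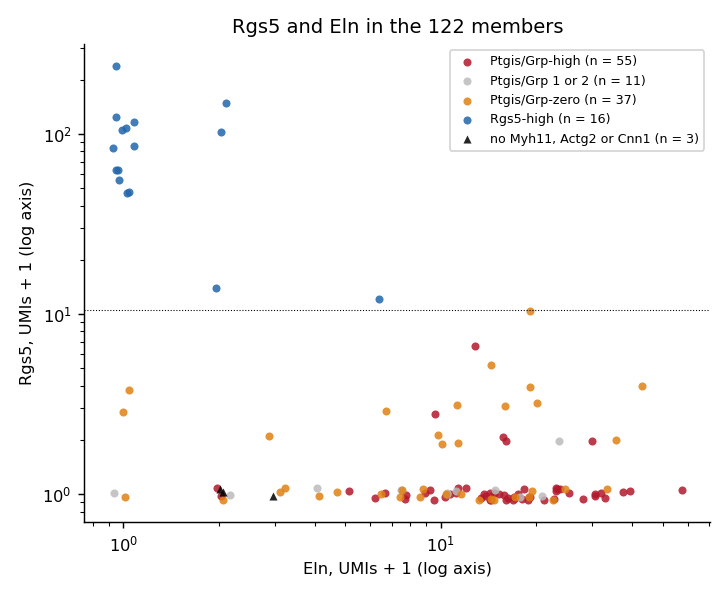
Each point is one of the 122 members, with Eln UMIs plus 1 on the horizontal log axis and Rgs5 UMIs plus 1 on the vertical log axis, jittered slightly, with colours for the Rgs5-high set and the Ptgis/Grp sets described next and triangles for the 3 cells without Myh11, Actg2 or Cnn1. The 16 cells above the dotted line of 10 Rgs5 UMIs lie at the low end of Eln, and the 103 Rgs5-low cells spread to 56 UMIs of Eln.

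Within the 103 Rgs5-low cells, Ptgis, the enzyme that makes prostacyclin, and Grp marked a further division. The 2 genes summed to at least 3 UMIs in 55 cells and to 0 in 37, with 11 cells at 1 or 2. Median depth was 6398 UMIs in the first set, 5968 in the second and 3451 in the 11 cells, so whether the sets are types or ends of a range was not tested. The Ptgis/Grp-high cells had more Fbln5, at 1223 against 92.1 CPM, a ratio of 13.3 (8.48 to 21.9), more Ltbp1, at 820.9 against 92.1 CPM, and more Osr1, a zinc finger factor of mesoderm, at 657.9 against 59.9 CPM. Cnn1 was at 873.3 against 184.3 CPM, Lmod1 at 975.1 against 469.9 CPM and Jag1 at 672.4 against 225.8 CPM. Other muscle genes went the other way, with Mylk at 599.6 against 1147 CPM, a ratio of 0.523 (0.432 to 0.631), and Des at 381.3 against 898.4 CPM, a ratio of 0.424 (0.338 to 0.532). Eln differed little, at 2690 against 2004 CPM, a ratio of 1.34 (1.20 to 1.51), and Loxl1 was at 710.2 against 612.8 CPM, with an interval of 0.935 to 1.44 for the ratio. Sfrp2 and Sost had 86 and 52 UMIs against 0 and 0.

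Mural and matrix genes differed in both directions between the sets. Cspg4, a proteoglycan of mural cells, was higher in Ptgis/Grp-high cells, at 148.5 against 64.5 CPM, as were Mfap4, with a ratio of 2.24, and Lox, with a ratio of 7.70. The genes named next were higher in Ptgis/Grp-zero cells. Nes was at 340.9 CPM against 69.9 CPM in Ptgis/Grp-high cells, a ratio of 0.205 (0.124 to 0.329) for high over zero. Cells near the limit of the rule held much of it. Of the 37 cells, 14 had a smooth muscle sum under 2 times the next sum and held 46 of the 74 Nes UMIs, at 474.7 CPM. The other 23 held 28 UMIs, at 233.0 CPM, of which 14 were in 1 cell. None of the 55 Ptgis/Grp-high cells was so near the limit, and the part of this in the other differences between the sets was not tested. Notch3 was at 442.3 against 189.2 CPM, Heyl, a target of Notch, at 327.1 against 160.1 CPM, Pdgfrb at 437.7 against 142.6 CPM and Ednra at 244.2 against 61.1 CPM. Mustn1 was at 1520 against 244.5 CPM, Igfbp5 at 1788 against 486.1 CPM and Ltbp2, a latent TGF-beta binding protein, at 843.1 against 66.9 CPM. Olfr78 had 22 UMIs against 2. Pdgfra, a myofibroblast gene, had 31 UMIs in 6 of the 37 cells and 3 UMIs in 3 of the 55, and Tgfbi, from the rule's myofibroblast sum, had 75 UMIs in 8 and 5 UMIs in 5. The part of these myofibroblast genes in the division was not tested.

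**Figure D5:**
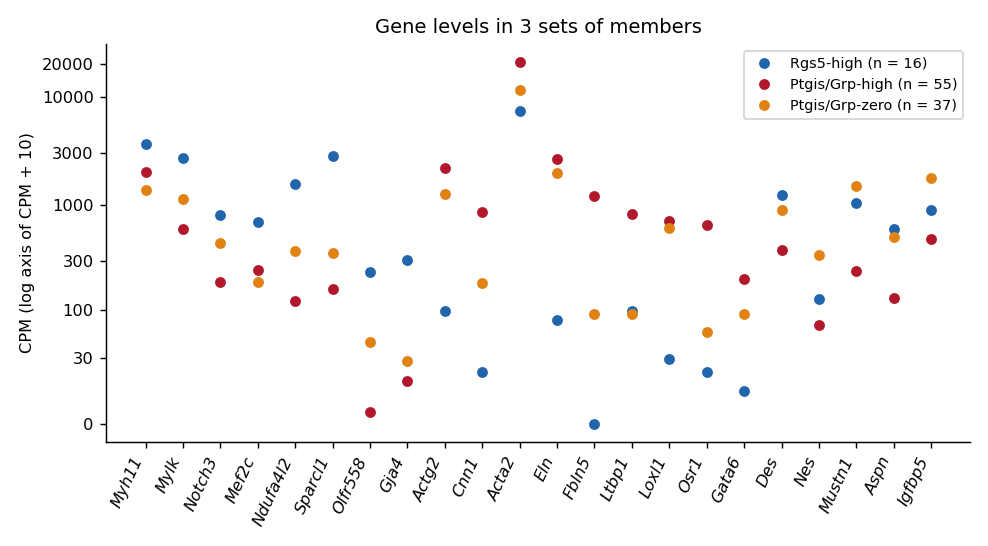
The plot shows CPM on a log axis of CPM plus 10 for 22 genes in the 16 Rgs5-high, 55 Ptgis/Grp-high and 37 Ptgis/Grp-zero members, with no error bars. Rgs5-high cells are highest for Myh11, Mylk and Sparcl1 and lowest for Actg2, Cnn1 and Eln, and Nes is highest in Ptgis/Grp-zero cells.

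In the brain library 1 of 4151 cells met the same rule. It had 8 UMIs of Myh11 and none of Actg2, Cnn1 or Actc1, with 14 of Acta2, 22 of Rgs5, 5 of Notch3 and 0 of Eln. A single cell allows no comparison with the lung cells.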

How the data were processed

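Cells were sorted for GFP from the lungs and brains of Nes-GFP mice and profiled by droplet 3' RNA sequencing (10x v3), with 1 library for each organ. The authors deposited raw UMI counts per gene and barcode, made with bcl2fastq 2.19.1.403, UMI-tools 1.0.0, STAR 2.7.1a and featureCounts 1.6.4 on mm10 per the submitters' processing notes. The annotation version is not given in the sources used here.

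Barcodes with over 200 and under 4000 genes and under 40% mitochondrial UMIs were kept, the limits that the authors' methods state. Scrublet in scanpy 1.11.5 (expected rate 0.06) was run, and the doublets it called were kept. UMIs were summed over each class and scaled to CPM in Python 3.11.15 with scipy 1.17.1. Intervals are exact (Poisson, conditional binomial or Clopper-Pearson) at 95% and cover counting error only. A gene with no UMI in the lower class was given a floor of 3 UMIs over that class. Shares of cells were compared after thinning each cell to 1000 UMIs, which kept 2136 of 2139 pericytes and every member, myofibroblast and endothelial cell. Beside genes of the lists, the text names, among all genes except those of the rule and of the airway and vascular sums, the 10 genes with the highest and the 10 with the lowest ratio in each comparison, among genes with at least 30 UMIs in the class where they are higher. One gene that this rule names is not reported here. A planned comparison of airway with vascular members gave no value, because no member was on the airway side. The scripts were tested on simulated data. The members and gene lists were chosen with earlier results of these data known.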

Additional observations from a re-analysis of the deposited data

Results flagged for a closer look

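Signals outside the cells analysed came from barcodes that met the smooth muscle rule. In the lung library, 2 barcodes beyond the upper limit of genes per cell had 57 and 107 UMIs of the rule genes, with 4013 and 4454 genes, 12428 and 18390 UMIs in all, and 3.93% and 15.5% mitochondrial UMIs. In the brain library, 1 cell had 8 UMIs of the rule genes, all of Myh11, and 6 UMIs of the pericyte sum.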

How the results depend on the processing

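The summed level of the contractile list in members was 3.75 times that of pericytes and 3.17 times that of myofibroblasts, and over 10 alternatives it ranged from 3.53 to 4.18 and from 2.98 to 3.53. It was 3.53 and 2.98 with a minimum of 4 UMIs for the rule genes, 4.18 and 3.53 with 16, 3.91 and 3.30 without Actc1 in the rule, and 4.04 and 3.41 where the smooth muscle sum had to be at least 2 times each other sum. With each cell weighted equally it was 3.03 against myofibroblasts. The Nes ratio ranged from 0.204 to 0.321 against pericytes and from 0.241 to 0.380 against myofibroblasts, with the lowest values, 0.204 and 0.241, under the rule of at least 2 times each other sum. A minimum of 16 UMIs left 81 members and 76 on the vascular side. No alternative put a member on the airway side, but none changed the genes of the myofibroblast sum in the rule. This 0 therefore shows no stability. Without a minimum CPM, 8265 genes were called higher and 1834 lower against pericytes, and 7544 and 1671 against myofibroblasts, compared with 499, 735, 385 and 509. Median-of-ratios scaling gave 586 higher and 593 lower against pericytes and 423 and 430 against myofibroblasts, so the excess of lower calls depends on the scaling. Some alternatives were chosen after seeing the data: the list ratios were 3.87 and 3.26 without the 3 cells that lacked Myh11, Actg2 and Cnn1, and 3.86 and 3.26 without the 16 Rgs5-high cells, and the number of Rgs5-high cells was 18 with a minimum of 5 Rgs5 UMIs and 14 with 20. Of 89 alternative values, 68 stayed within their interval or within 1.5 times the count, 21 moved and 0 reversed, and the cause was not tested. The 68 include the number of airway-side cells, which was 0 under every alternative. No paired analysis was possible because each group is 1 library. One UMI in the members equalled 1.37 CPM, and the floor of 3 UMIs, used for genes at 0, equalled 4.12 CPM, so lower levels than this in the members are not resolved.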
